A study of Mus musculus with 36 samples.

Results

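Cytosolic ribosomal protein genes encode the proteins of the ribosome that works in the cytoplasm. They were taken as the protein-coding mouse genes with an Rpl or Rps symbol followed by a number, with or without a closing a, l, x or y, and Rplp0, Rplp1, Rplp2 and Rpsa. The rule found 80 genes of the 25496 in the tables, 49 of the large and 31 of the small subunit. The rule used no measured value. The libraries are 36 RNA-seq libraries of C57/Bl6 mouse brain cells, 2 for each of 6 populations in 3 regions. The populations are labelled A, B, C, D, E and Neg, and the regions olfactory bulb, cortex and brainstem. All libraries carry the cell type astrocyte. Age, sex, transgenes and what the letters or Neg stand for are not given in the labels. The labels do not tie the 2 libraries of a group to different animals, and the p-values rest on the spread between libraries, which may be technical.

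A ribosome holds a small subunit, which reads the mRNA, and a large subunit, which joins amino acids. Most ribosomal proteins are present in a single copy per ribosome, and their genes are expressed in every cell. The acidic stalk, made of the products of Rplp0, Rplp1 and Rplp2, recruits translation factors to the large subunit. Many mRNAs of this family start with a C followed by a run of pyrimidines, the terminal oligopyrimidine tract, through which their translation responds to mTOR signalling. Mammalian genomes also hold many processed pseudogenes of these genes, so that reads of a gene and of its copies can be hard to tell apart.

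The libraries differed in ways that bear on the family. Summed FPKM over nuclear genes was 23005 to 70447 in E and 24130 to 63081 in Neg, against 37453 to 163132 in A to D. E libraries had 3008 to 6785 genes at 1 FPKM or more and Neg libraries 2107 to 7471. Coverage per FPKM, a measure of depth, was 0.0695 in brainstem E replicate 1 and 0.315 in olfactory bulb E replicate 1, against 1.16 to 4.08 in the other 34 libraries. The total of mapped fragments is unknown. The 15 astrocyte markers summed to 531.6 to 1388 FPKM in A, 999.3 to 2782 in B, 1526 to 3260 in C, 291.9 to 3477 in D, 181.5 to 1084 in E and 51.1 to 485.3 in Neg. The 15 microglia and macrophage markers summed to 1062 to 2015 FPKM in B, against 32.5 to 848.4 in the other lettered populations. At most 4 of the 15 astrocyte markers were listed at 0 in any library. The 12 oligodendrocyte markers summed to 725 to 13877 FPKM in A to E and 1983 to 7268 in Neg. Library numbers in the titles fall in 2 series, the first with 21 libraries (all of Neg and C, most of A and B) and the second with 15 (all of D and E, with cortex A replicate 2, brainstem A replicate 2 and brainstem B replicate 2). What the series mark is not stated, and series and population can be told apart only in part.

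Some family members have near-identical copies elsewhere in the genome, and in these tables the FPKM stood at the copy. The sequences below are 120-base stretches of coding sequence from GENCODE mm10 and show why the reads cannot be assigned with certainty. Rps27, at chr3:90212522-90213651 on the minus strand, encodes a small subunit protein with a zinc finger, and Rps27rt, at chr9:114982366-114982739 on the minus strand, is annotated as protein-coding. All 255 coding bases of Rps27 and Rps27rt are the same, and the first 120 read as follows.
Rps27 and Rps27rt: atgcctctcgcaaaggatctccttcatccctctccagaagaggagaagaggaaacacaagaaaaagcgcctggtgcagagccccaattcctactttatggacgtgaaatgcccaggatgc
Rpl37, a large subunit gene at chr15:5116645-5119140, and Rpl37rt, at chr5:115102923-115110268, match at 293 of 294 coding bases. Coding bases 130 to 249 hold the 1 difference, which is in capitals.
Rpl37: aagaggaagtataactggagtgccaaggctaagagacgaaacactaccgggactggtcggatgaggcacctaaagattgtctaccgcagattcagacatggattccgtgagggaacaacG
Rpl37rt: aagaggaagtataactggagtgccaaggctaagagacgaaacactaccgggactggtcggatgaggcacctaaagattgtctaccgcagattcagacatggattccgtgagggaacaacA
Rps23, at chr13:90922958-90924950, encodes a small subunit protein at the decoding centre. It and the processed pseudogene Rps23-ps1, at chr3:37714740-37715164 on the plus strand, match at all 425 bases compared, of a coding length of 432.
Rps23 and Rps23-ps1: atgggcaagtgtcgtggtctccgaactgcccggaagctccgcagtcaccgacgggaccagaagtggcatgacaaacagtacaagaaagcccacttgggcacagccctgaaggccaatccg

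Rps27rt had a median of 169.6 FPKM (30.9 to 640.0) and stood above Rps27 in 36 of 36 libraries. Rps27 itself was listed at 0 in 22 libraries and reached 22.1 FPKM in cortex A replicate 2. Rpl37rt had a median of 64.0 FPKM, against 1.73 for Rpl37, and was higher in 36 of 36 libraries. Rps23-ps1 (38.8 against 0.544 FPKM) and Rpl14-ps1 (31.0 against 10.1 FPKM) were each higher than their parent gene in 35 of 36 libraries. FPKM of Rps27, Rpl37 and Rps23 is therefore uncertain. Across all 80 genes, the 20 with at most 25% of their 50-base runs shared with other genes had a median level of 9.17 FPKM, the 34 with 25 to 50% shared 3.07 FPKM, and the 26 with more than 50% shared 1.14 FPKM. Spearman's rho between the shared share and the median level was -0.31 over the 80 genes, which share the same libraries and differ in length.

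**Figure D1:**
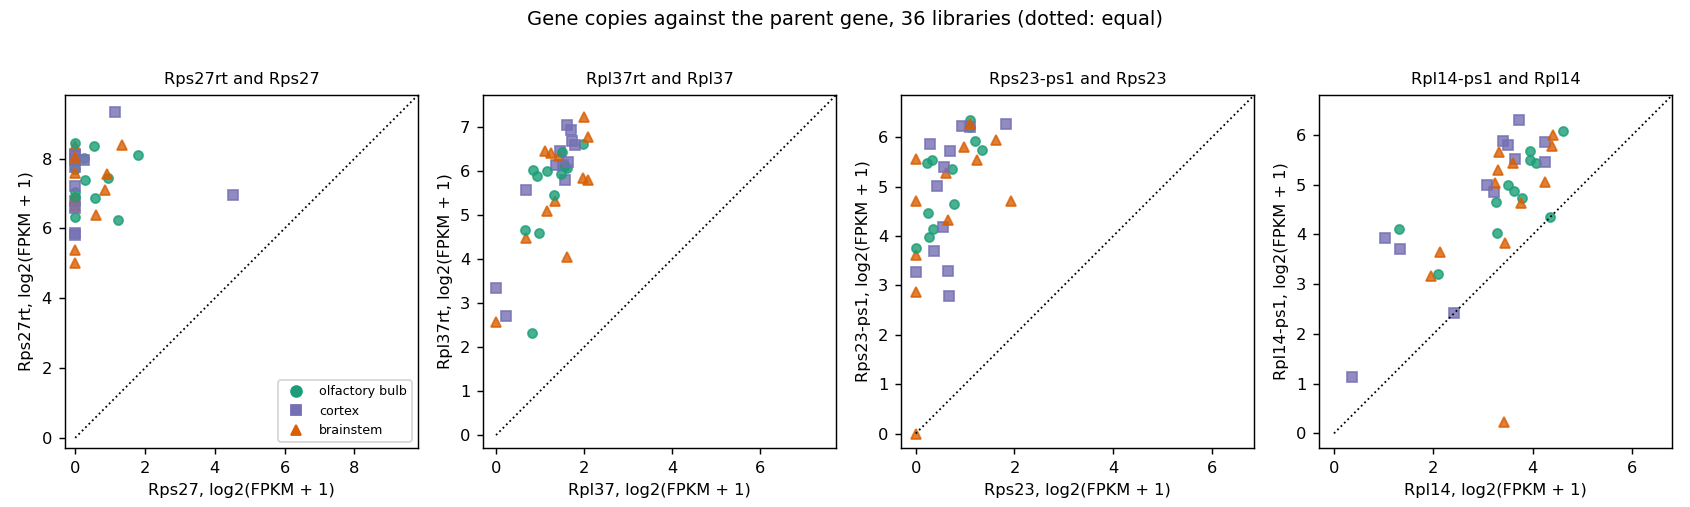
Level of 4 gene copies (vertical axis) against the parent gene (horizontal axis) in log2(FPKM + 1), 1 point per library, coloured by region; the dotted line marks equal levels. Rps27rt and Rpl37rt lie above the line in all 36 libraries, Rps23-ps1 and Rpl14-ps1 in 35.

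Levels differed widely between members. Over the 36 libraries the median level was 100 FPKM or more for 2 members, 10 to 100 for 18, 1 to 10 for 31 and under 1 for 29. Of the 20 members at 10 FPKM or more, 12 belong to the small and 8 to the large subunit. Rpl41, which encodes the smallest protein of the family, was highest, with a median of 297.5 FPKM (58.2 to 858.6), and made up 16.6 to 49.1% of the family's FPKM. Rps15 followed with 102.0 FPKM (5.64 to 182.9) and Rpl4 with 61.9 FPKM (6.56 to 125.1). The half-width of the interval that Cufflinks gave was 6.32 to 14.6% of the value for Rpl41, 7.48 to 42.6% for Rps15 and 4.47 to 18.7% for Rpl4 in the 34 libraries with the higher coverage. FPKM is scaled to transcript length, but how reads shared by gene copies were assigned is not known, so the order of levels between members is uncertain.

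The paralogs with tissue-restricted expression were at or near 0. Rpl10l, a retrogene of Rpl10 expressed in mouse testis, was listed at 0 in all 36 libraries. Rpl39l, a testis paralog of Rpl39, was listed above 0 in 1 library, at 0.436 FPKM in olfactory bulb D replicate 1. Rpl3l, the muscle paralog of Rpl3, was above 0 in 4 libraries, at 0.0538 FPKM in cortex B replicate 2, 0.102 in brainstem B replicate 1, 0.105 in cortex C replicate 2 and 0.128 in brainstem C replicate 1. Rps27l, a paralog which p53 induces and which is not counted as tissue-restricted here, was at 0 to 26.7 FPKM in A to E and 0.321 to 7.37 in Neg. Among all members, these paralogs included, 15 were at 0 in more libraries than not, and 8 reached 1 FPKM in all 36. A listed 0 can be a failed estimate, which was not tested. Of the 80 members, 67 passed the filter for testing (38 large, 29 small). The 13 that did not were Rpl3l, Rpl10l, Rpl39l, Rpl9, Rpl11, Rpl12, Rpl17, Rpl24, Rpl27, Rpl28, Rpl36a, Rps7 and Rps13.

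**Figure D2:**
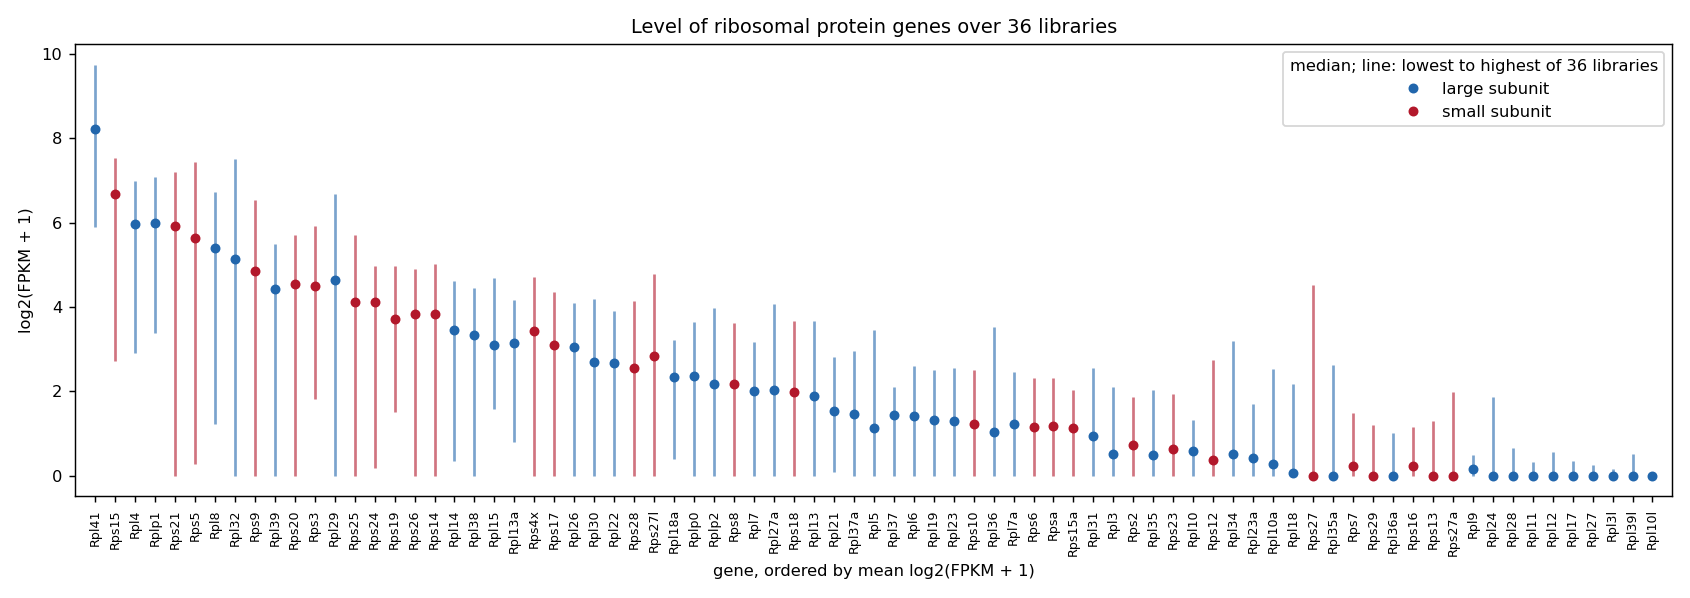
Level of 79 of the 80 genes in log2(FPKM + 1); points are medians and lines run from the lowest to the highest of 36 libraries, coloured by subunit. Rpl41 leads at a median of 297.5 FPKM and Rpl10l is listed at 0 in all 36.

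Promoter sequences from RefSeq (GRCm38.p6) were matched for 60 of the 80 members. Within 25 bases before to 25 after the annotated start, 32 of the 60 (53.3%) held a C followed by at least 7 pyrimidines on the sense strand, against 17.7% of 27025 genes. CTTTCC, which can overlap such a tract, was there on either strand in 20% of members and 5.45% of all genes. TATAAA was there in 5% (3 of 60) and 1.77%. From 250 bases before to 50 after the start, TATAAA was in fewer members than genes, at 10% and 15.7%, and CTTTCC was in 53.3% and 29.3%. Windows of 50 bases follow, sense strand, 5′ to 3′, with the tract in capitals. The first 3 are from genes lower in E on each of 3 scales, and the last 2 from genes that were not called in E as deposited.
Rplp2, chr7:141447626-141447675, plus strand: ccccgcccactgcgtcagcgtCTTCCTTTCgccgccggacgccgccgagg
Rps25, chr9:44407689-44407738, plus strand: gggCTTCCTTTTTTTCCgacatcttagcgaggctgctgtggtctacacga
Rps26, chr10:128626482-128626531, minus strand: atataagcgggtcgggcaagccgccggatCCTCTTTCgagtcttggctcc
Rpl15, chr14:18270962-18271011, minus strand: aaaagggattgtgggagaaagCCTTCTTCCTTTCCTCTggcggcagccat
Rps6, chr4:86857343-86857392, minus strand: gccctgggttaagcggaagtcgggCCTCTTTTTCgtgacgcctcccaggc

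As a share of nuclear FPKM, the family was lowest in E and highest in Neg and A. The lowest, median and highest share of 6 libraries was 1.20, 1.61 and 1.90% in A, 0.910, 1.26 and 1.42% in B, 0.937, 1.34 and 1.68% in C, 0.959, 1.13 and 1.22% in D, 0.639, 0.853 and 1.29% in E, and 1.26, 1.69 and 1.89% in Neg. E overlapped with each other population, and neighbours in this order overlapped throughout. The summed FPKM gave another order, with medians of 1406 in A, 1514 in B, 1939 in C, 1025 in D, 360.2 in E and 707.1 in Neg. Neg thus had a low sum and a high share. FPKM is scaled to the mapped total of each library, so a low sum measures neither cell number nor RNA per cell. For the share, fewer cells of a type and less RNA of the family per cell cannot be told apart in bulk libraries. By region, over A to E, the share had a median of 1.17% (0.812 to 1.64) in olfactory bulb, 1.40% (0.673 to 1.90) in cortex and 1.10% (0.639 to 1.31) in brainstem, with overlapping ranges. From 20 to 51 of the 80 members were listed at 0 in E libraries, 6 to 33 in A to D and 13 to 27 in Neg.

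**Figure D3:**
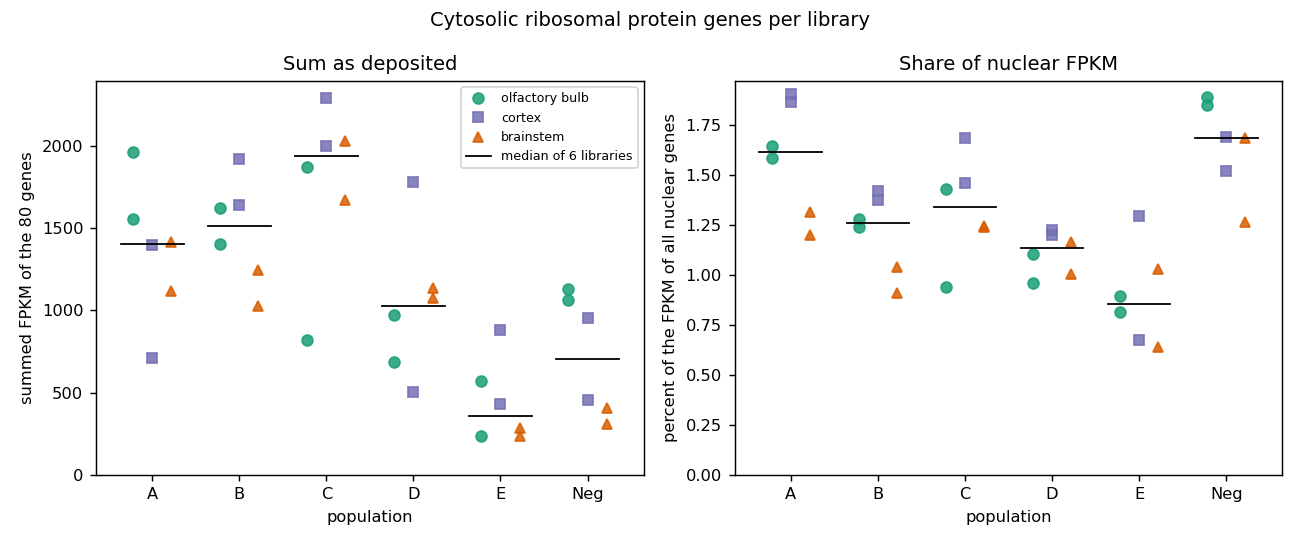
Summed FPKM of the 80 genes (left) and their percent of the FPKM of all nuclear genes (right) per library, by population, with the region as symbol and the median of 6 libraries as a line. E has the lowest median in both panels, with medians of 360.2 FPKM and 0.853%, while Neg is low on the left at 707.1 FPKM and high on the right at 1.69%.

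Population E against the mean of A to D gave the most calls. Of 67 members, 47 fell in E and none rose (limma, adjusted p under 0.05), beside 42.5% of the 13583 genes tested that fell and 0.103% that rose. The median difference was -1.13 on the log2 scale for the members and -0.66 for all genes. In the small subunit 21 of 29 members fell, with a median difference of -1.69, and in the large subunit 26 of 38, with -0.98. This scale shrinks differences of low genes, and 12 small against 8 large subunit members had a median of 10 FPKM or more. The part of level in the subunit medians was not tested. No tested member's E values lay wholly below those of A to D. The same was not counted over all genes, so this cannot be set beside their share.

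Rps4x, the X-linked small subunit gene, was at 0 and 2.30 FPKM in olfactory bulb E, 3.84 and 1.01 in cortex E and 0 in both brainstem E libraries, against 0.463, 12.8 and 25.1 FPKM as lowest, median and highest of A to D. The groups overlapped only below 4 FPKM. It fell by 2.75 ± 0.39 (log2, SE; limma adjusted p = 3.25e-05). Rpl32 of the large subunit was at 0, 7.84 and 20.01 FPKM as lowest, median and highest in E, against 11.0, 49.7 and 181.1 FPKM in A to D. Its difference was -2.80 ± 0.39 (limma adjusted p = 3.10e-05). In both genes at least 1 of the E libraries was listed at 0, and the size on this scale depends on the pseudocount there.

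All 3 stalk genes fell in E as deposited, and of them Rplp2 alone was also called after rescaling to the nuclear sum and after quantile normalization. Rplp1 was at 9.47, 18.2 and 24.7 FPKM in E, against 12.5, 78.3 and 134.0 FPKM in A to D, and fell by 1.82 ± 0.36. Rplp2 fell by 1.88 ± 0.34 and Rplp0, the scaffold of the stalk, by 1.35 ± 0.32. Rpl41 was at 58.2, 120.1 and 232.0 FPKM in E, against 197.6, 425.9 and 858.6 FPKM in A to D, and no E library reached the A to D median. Its difference was -1.90 ± 0.30 (limma adjusted p = 9.46e-05). Rpsa, also known as the laminin receptor, fell by 1.18 ± 0.28, Rpl3, near the peptidyl transferase centre, by 0.88 ± 0.22, and Rps27l by 2.10 ± 0.53. Rpl10, which joins late in large subunit assembly, had a difference of -0.50 ± 0.20 (limma adjusted p = 0.0453) and was no longer called under 30 of 50 alternatives and turned sign under another 2. Rps6, the S6 kinase substrate, was not called (-0.62 ± 0.31, limma adjusted p = 0.102), and neither was the ubiquitin fusion gene Rps27a (-0.24 ± 0.18, limma adjusted p = 0.265).

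**Figure D4:**
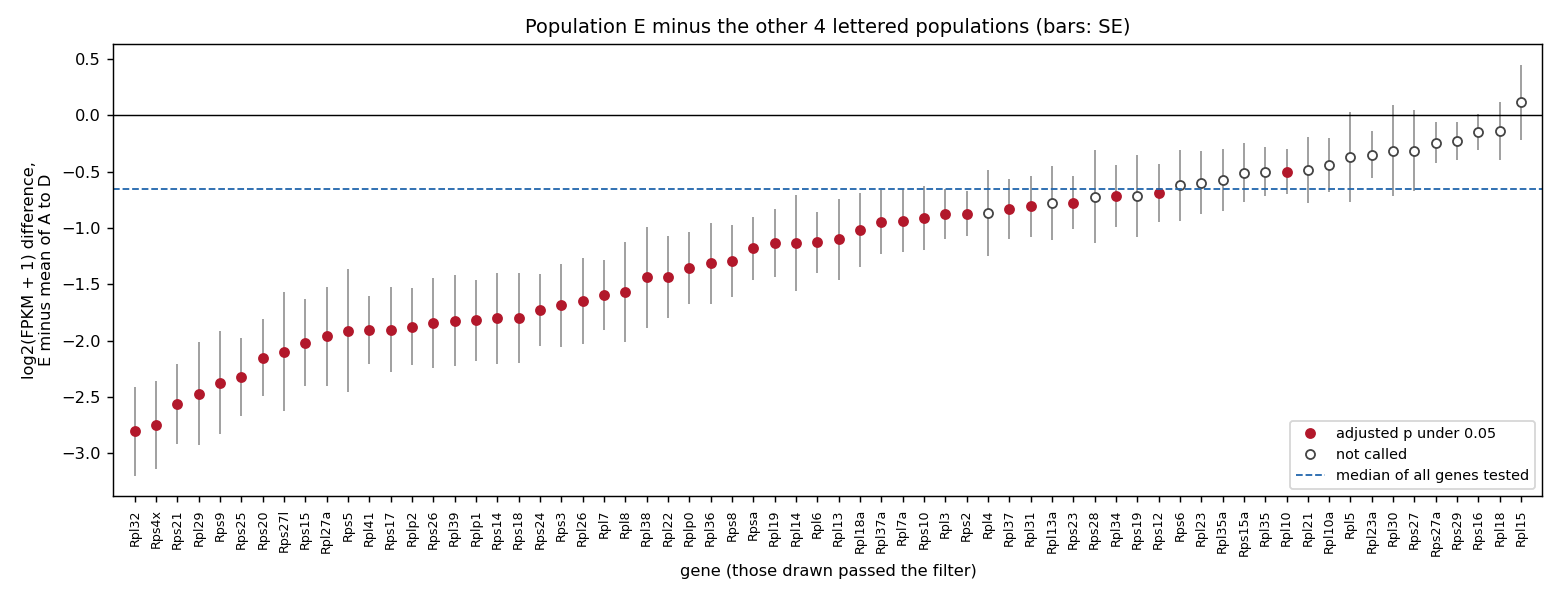
Difference of E minus the mean of A to D on log2(FPKM + 1) for 66 of the 67 tested genes, with its SE; filled points passed an adjusted p under 0.05 and the dashed line is the median of all genes tested. All filled points are below 0, Rpl32 among them at -2.80 and Rps4x at -2.75.

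How many members fell in E depended on the scale and the libraries. After each library was rescaled to the median nuclear sum, 19 members fell and 1 rose, beside 9.09% and 1.4% of 13547 genes, and the medians were -0.66 for members and -0.28 for all genes. After quantile normalization 13 fell and 1 rose, beside 4.15% and 3.76% of all genes. On all 3 scales 11 members fell, among them Rpl29, Rpl32, Rpl41, Rplp2, Rps20, Rps21, Rps25, Rps26, Rps27l and Rps4x. The 1 that rose on both rescaled data sets was Rpl15, a large subunit gene at 3.32, 7.71 and 24.9 FPKM in E, with the highest value in brainstem E replicate 2, against 1.99, 7.54 and 12.7 FPKM in A to D. Without the 2 libraries of low coverage, 30 members fell on the scale as deposited, and without the 8 libraries under 5000 genes, 23 of 66. The 8 libraries include both brainstem E libraries, so without them E was compared in olfactory bulb and cortex alone. The share of all genes that fell in these fits is not given, so these counts cannot be read against it.

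E and D share a number series, so E can also be set against D within it. With these populations alone and 6 residual degrees of freedom, limma called 0 of 56 members and 0% of 10752 genes, while 14 members and 1759 genes passed an unadjusted threshold of 0.05. The medians were -0.90 for members and -0.60 for all genes. Rps4x differed by -1.97 ± 0.65 between E and D (limma adjusted p = 0.239). With the number series as a term over all libraries, 4 members fell in E (Rps4x, Rps21, Rpl32 and Rps24), beside 0.987% of all genes. The part of the number series, of depth and of other cells was not tested: 13 of 15 astrocyte markers and 14 of 15 microglia and macrophage markers also fell in E as deposited, beside 42.5% of all genes, the second list with sums of 32.5 to 93.4 FPKM in E, against 45.0 to 2015 FPKM in A to D.

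The counts for other gene groups in E, as deposited, stand beside the 42.5% of all genes that fell. Of 8 ribosomal genes outside the symbol rule 5 fell, among them Rpl36al, which differed by -2.85 ± 0.49 (limma adjusted p = 1.67e-04), and the copy Rps27rt, by -1.48 ± 0.34. The copies Rpl37rt (-2.30 ± 0.42), Rps23-ps1 (-2.26 ± 0.43) and Rpl14-ps1 (-2.05 ± 0.48) fell as well. Of other genes whose mRNAs have the terminal pyrimidine tract, 6 of 16 fell, led by the elongation factor subunits Eef1d and Eef1g. The counts were 14 of 25 for translation initiation factors, with Eif3g and Eif3d, and 17 of 27 for ribosome biogenesis, with Nol6 and Rrp1. For mitochondrial ribosomal proteins 43 of 72 fell, with Mrps12 and Mrps11, for nuclear oxidative phosphorylation genes 66 of 77, with Ndufb11 and Atp5a1, and for proteasome subunits 30 of 38, with Psmb6 and Psmc3. Among 1307 other genes with a main transcript under 1000 bases, 573 fell.

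Against Neg, the lettered populations had a few higher members as deposited. Of 67 members 7 rose in A to E and none fell, beside 20.2% higher and 0.14% lower of all genes, with medians of 0.48 for members and 0.50 for all genes. Rpl29, a large subunit protein, was at 0, 25.7 and 102.3 FPKM as lowest, median and highest in A to E, against 19.8 and 69.0 FPKM in olfactory bulb Neg and 0 in all 4 cortex and brainstem Neg libraries. It rose by 2.63 ± 0.45 (limma adjusted p = 4.17e-04) and was called under all 53 alternatives. It shares 50-base runs with 81 pseudogenes, so its 0 values are uncertain. Rpl8, of the large subunit, rose by 1.65 ± 0.43 (limma adjusted p = 0.0102), with 7.004, 49.6 and 105.1 FPKM in A to E, against 1.34, 17.6 and 35.9 in Neg. Rplp0 rose by 1.33 ± 0.31, Rps4x by 1.13 ± 0.38 and Rpl3 by 0.63 ± 0.22 (limma adjusted p = 0.0395).

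The direction turned with the scale. After rescaling to the median nuclear sum, Rpl29 alone rose, by 2.38, and 4 members fell in A to E (Rps21, Rpl30, Rpl31 and Rpl41), beside 2.41% and 1.89% of all genes. After quantile normalization 1 rose and 5 fell, beside 2.92% and 4.05%. Within the first number series, where A to C are set against Neg, 50 of 65 members rose, beside 66.2% of 12907 genes, and on rescaled values 6 rose and 9 fell, beside 22.4% and 5.69%. The count of 7 also rested on single Neg libraries: it was 3 without olfactory bulb Neg replicate 1, 4 without olfactory bulb Neg replicate 2, 13 without cortex Neg replicate 1, 2 without cortex Neg replicate 2, and 3 without either brainstem Neg library. It was 15 without cortex A replicate 2, 12 without brainstem B replicate 2, 11 without olfactory bulb D replicate 2, 23 without cortex D replicate 2, 14 without olfactory bulb E replicate 1 and 11 without cortex E replicate 1. The share of all genes called without each library is not given. All 15 astrocyte markers rose in A to E beside these members, and their part was not tested.

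Set against the mean of A, C, D and E, population B had 7 higher members and no lower one, beside 15.4% of all genes higher, with medians of 0.46 and 0.35. Rpl32 was at 42.2, 71.6 and 181.1 FPKM in B, with the highest value in brainstem B replicate 2, against 0, 31.2 and 93.6 FPKM in the others, and rose by 1.62 ± 0.39 (limma adjusted p = 0.00521). Rps9 rose by 1.32 ± 0.46 (limma adjusted p = 0.0471), Rps4x by 1.18 ± 0.39, Rplp2 by 1.12 ± 0.34, Rplp1 by 1.02 ± 0.36 (limma adjusted p = 0.0497) and Rpl3 by 0.83 ± 0.22. These calls did not hold on other scales: after rescaling none rose and 2 fell (Rpl4 and Rps19), beside 1.12% of all genes that fell, and after quantile normalization none rose and 2 fell (Rpl15 and Rps19), beside 1.94%. The count was 4 without cortex A replicate 2, olfactory bulb C replicate 2 or cortex C replicate 2, 2 without olfactory bulb B replicate 1, 3 without olfactory bulb B replicate 2 or either cortex B library, and 12 without cortex D replicate 1. These counts stand without the share of all genes called. All 15 microglia and macrophage markers rose in B beside these members, and their part was not tested.

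Population C had 6 higher members and no lower one, beside 7.51% of all genes higher, with medians of 0.65 and 0.39. Rps27l was at 6.24, 16.0 and 26.7 FPKM in C, against 0, 5.46 and 16.9 FPKM in the other lettered populations, and rose by 1.76 ± 0.53 (limma adjusted p = 0.0426). Rplp2 rose by 1.31 ± 0.34, Rps4x by 1.28 ± 0.39 and Rpl41 by 0.97 ± 0.30 (limma adjusted p = 0.0465). The first number series holds no D or E library, so within it C was set against A and B alone, which is another comparison. None of the 6 was called after rescaling, beside 0.0443% of all genes that rose, after quantile normalization, beside 0.0442%, or within the first number series, beside 0%. Leaving out any one of olfactory bulb C replicate 1, cortex C replicate 1 or either brainstem C library also left none, and leaving out cortex C replicate 2 left 1. The count was 2 without olfactory bulb A replicate 1 or 2, cortex A replicate 2, brainstem A replicate 2, olfactory bulb B replicate 2, cortex B replicate 1 or olfactory bulb E replicate 1, and 3 without olfactory bulb B replicate 1, cortex B replicate 2 or olfactory bulb D replicate 2. It was 23 without cortex D replicate 1 and 10 without olfactory bulb E replicate 2. Here too the share of all genes called is not given. Of 15 astrocyte markers 13 rose in C beside these members, and their part was not tested.

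Populations A and D had no called member. Their counts at an unadjusted p under 0.05 are not calls, and the share of all genes at that threshold is not given. In A, limma called 0 of 67 members and 0% of all genes, and 5 members had an unadjusted p under 0.05. The smallest were Rps21 (1.10 ± 0.36) and Rps20 (0.87 ± 0.34), both of the small subunit, each with a limma adjusted p of 0.999. In D, 0.103% of all genes were called in either direction, and 2 members had an unadjusted p under 0.05. These were Rpl3 (-0.61 ± 0.22, limma adjusted p = 0.416) and Rps10 (-0.62 ± 0.29, limma adjusted p = 0.542). Without cortex D replicate 1, 2 members were called in D.

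**Figure D5:**
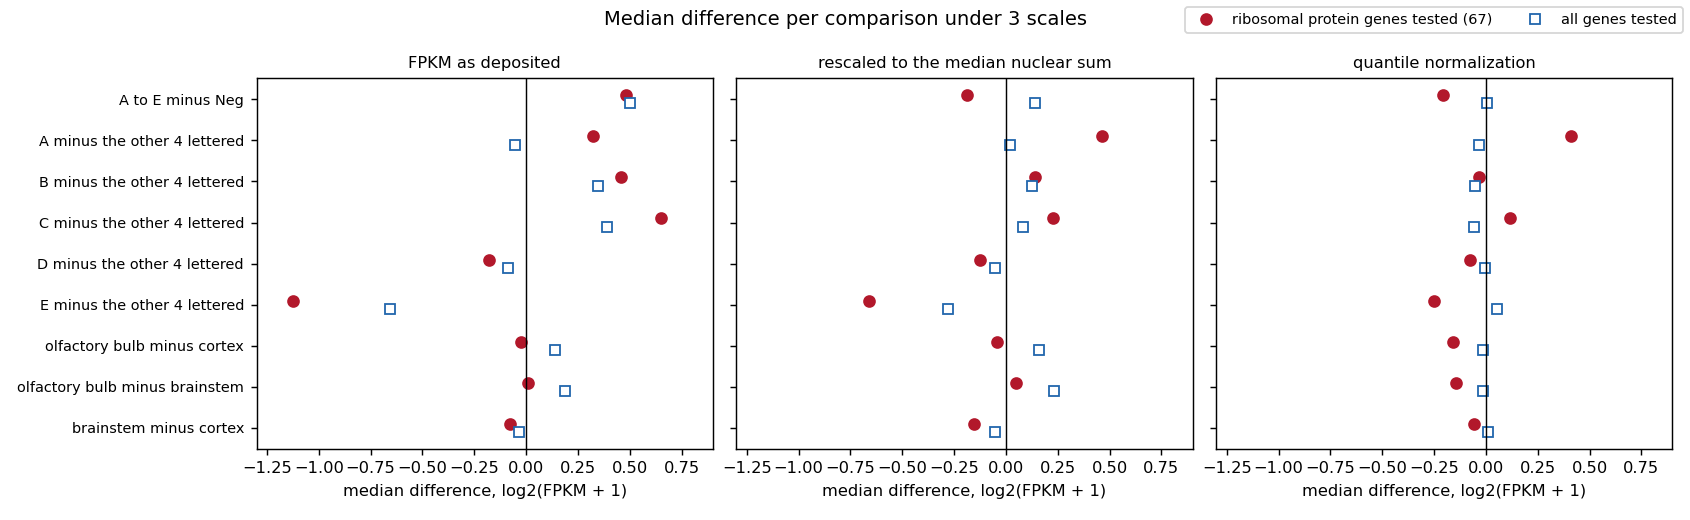
Median difference of the 67 tested members (circles) and of all genes tested (squares) on log2(FPKM + 1), in 9 comparisons, with FPKM as deposited, rescaled to the median nuclear sum or quantile normalized. In E the members' median is -1.13 as deposited, -0.66 rescaled and -0.25 after quantile normalization, and for A to E minus Neg it is 0.48, -0.19 and -0.21.

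Between regions, over A to E, no member was called as deposited. The shares of all genes below are at an adjusted p under 0.05. They are not the background for the counts of members at an unadjusted p, for which none is given. Olfactory bulb minus cortex called 3.73% of all genes, and 7 members had an unadjusted p under 0.05. The smallest were Rpl23a, a large subunit gene that shares 50-base runs with 28 pseudogenes (-0.65 ± 0.20, limma adjusted p = 0.0750), which was called as lower after quantile normalization, beside 1.31% of all genes, and Rpl29 (-1.20 ± 0.45, limma adjusted p = 0.161). Olfactory bulb minus brainstem called 5.19% of all genes, and 4 members had an unadjusted p under 0.05, with Rpl4 (0.90 ± 0.38, limma adjusted p = 0.175) and Rps15a (0.60 ± 0.26, limma adjusted p = 0.189) smallest. After rescaling, Rpl4 and Rps21 were called as higher in olfactory bulb, beside 5.38% of all genes. Brainstem minus cortex called 1.75% of all genes, and 5 members had an unadjusted p under 0.05. Rps21 was at 0, 51.3 and 106.4 FPKM in brainstem and 19.4, 83.5 and 123.5 FPKM in cortex (-1.22 ± 0.35, limma adjusted p = 0.0699), and was called as lower after rescaling, beside 1.59% of all genes, and after quantile normalization, beside 1.42%. Rpl29 differed by -1.26 ± 0.45 (limma adjusted p = 0.214). Leaving out 1 library gave at most 2 called members in a region comparison: 1 for olfactory bulb minus cortex without cortex A replicate 1, cortex D replicate 2, either olfactory bulb E library or cortex E replicate 1, 2 for olfactory bulb minus brainstem without olfactory bulb E replicate 1, and 1 for brainstem minus cortex without cortex D replicate 2 or cortex E replicate 2.

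Whether population differences depend on region was asked with the interaction. No member was called, beside 0.0147% of all genes. At an unadjusted p under 0.05 there were 4 members, again without the share of all genes at that threshold. The smallest were those of Rpl29 (limma adjusted p = 0.230) and Rps21 (limma adjusted p = 0.380). It called 2 members without cortex D replicate 1 and 1 without either olfactory bulb E library.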

How the data were processed

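Total RNA was made into cDNA with random and oligo-dT primers and sequenced, per the labels' protocols. Base calls were converted with bcl2fastq 1.8.3 and reads processed with TopHat and Cufflinks on mm10, per the submitters' processing notes; the versions of TopHat and Cufflinks, their settings and the annotation are not stated. The authors deposited, per transcript, FPKM (fragments scaled to transcript length and to the mapped total) with its interval, and a coverage signal (mean depth), per the file headers. These are not counts, so no count test was run, and how reads shared by gene copies were assigned is not stated.

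Transcripts were assigned to GENCODE mm10 genes by locus, and FPKM was summed per gene. Genes with at least 1 FPKM in 2 libraries were tested with limma 3.58.1 (R 4.3.3) on log2(FPKM + 1): 18 group means, 18 residual degrees of freedom, two-sided, Benjamini-Hochberg adjustment over all genes, called at an adjusted p under 0.05. The procedure was tested on simulated data with independent noise per gene and no shift between libraries. That test does not cover the differences in scale between these libraries. A fold change on this scale understates that of low genes. No column of values was left unmapped. Alternatives were other scales, pseudocounts, filters, library sets and terms. The members and gene lists were chosen with earlier results of these data known. Named genes are those with fixed roles, the paralogs ending in l, the 3 highest and 3 lowest, and per comparison the 3 largest called in each direction, or the 2 smallest p where none was called; of other lists, the 2 smallest p. Other names were chosen after their values were seen. The values of 1 member are not reported here, and it is counted with the others but not drawn gene by gene.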

Additional observations from a re-analysis of the deposited data

How the results depend on the processing

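Each result was computed under up to 55 settings, of which the sequence copies and the number series analysed alone were chosen after seeing the data. No paired analysis was possible because the labels carry no replicate numbers. Counts are of members called in either direction. The share of all genes called is given above for some settings only, and the other counts cannot be read against it. Array weights gave 25 for A to E minus Neg, 25 for C and 1 for the region interaction, and a filter at 5 FPKM gave 12 for A to E minus Neg. Centring on the median member gave 1 for A to E minus Neg, 1 for B and 0 for C. For E it gave 31, of which 24 were higher and 7 lower. Centring takes the median of the members from each library, so members that fell less than that median come out higher. These counts therefore cannot test whether the family fell in E. No filter gave 2 for C, and a pseudocount of 0.1 gave 3 for B, 0 for C and 1 for brainstem minus cortex. A number series term gave 12 for A to E minus Neg, 1 for B, 0 for C, 4 for E and 1 for olfactory bulb minus cortex. Quantile normalization gave 2 for B (0 higher, 2 lower), 0 for C and 14 for E (1 higher, 13 lower). It also gave 1 for brainstem minus cortex and 1 for olfactory bulb minus cortex. Rescaling to the nuclear sum gave 2 for B (0 higher, 2 lower), 0 for C and 20 for E (1 higher, 19 lower). It also gave 2 for olfactory bulb minus brainstem, 1 for brainstem minus cortex and 1 for the interaction. Rescaling to the sum of other genes gave the same counts. The 8 libraries under 5000 genes include both brainstem Neg and both brainstem E libraries. Without them, E and Neg were compared in olfactory bulb and cortex alone, and B and C in brainstem were set against means without E. Without 8 libraries the counts were 1 for A to E minus Neg, 2 for B, 0 for C and 23 for E. Without the 2 of low coverage they were 14 for A to E minus Neg, 30 for E, 1 for olfactory bulb minus brainstem and 1 for the interaction. The first number series alone gave 50 for A to E minus Neg, 2 for B and 0 for C, and on rescaled values 15, 0 and 0. D and E alone gave 0 for E minus D, rescaled or not. The first number series lacks D and E, so its comparisons are A to C minus Neg, B minus A and C, and C minus A and B. Leaving out 1 library at a time gave 2 to 23 for A to E minus Neg, 0 to 0 for A, 2 to 12 for B, 0 to 23 for C, 0 to 2 for D, 37 to 50 for E, 0 to 1 for olfactory bulb minus cortex, 0 to 2 for olfactory bulb minus brainstem, 0 to 1 for brainstem minus cortex and 0 to 2 for the interaction. The cause of these changes was not tested.

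Centring shifts the difference of every gene in a comparison by the same amount, and it turned the sign in E of several members, Rplp0 (0.20), Rpsa (0.38), Rps6 (0.93), Rpl10 (1.06), Rpl3 (0.68) and Rps27a (1.31) among them. After quantile normalization those that turned included Rps6 (0.11), Rpl10 (0.31), Rpl3 (0.031) and Rps27a (0.12), and for D and E alone, rescaled, Rps6 (0.14). In the first number series alone, B was set against A and C without D and E. There it turned to -0.068 for Rps4x and -0.034 for Rplp1, and on rescaled values to -0.16 for Rps4x and -0.14 for Rplp1. On rescaled values C, set against A and B, was at -0.053 for Rpl41. The cause was not tested. With the sequence copies added, the family's median share of nuclear FPKM was 2.03% in A, 1.64% in B, 1.75% in C, 1.42% in D, 1.17% in E and 2.28% in Neg. With the 20 highest other genes left out of the total it was 2.08% in A, 1.495% in B, 1.85% in C, 1.45% in D and 2.09% in Neg. In E, 2 of the 6 libraries had the lowest coverage.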
